A study of Homo sapiens with 9 samples.

Results

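A set of 10 genes that report signalling through the kinases MEK and ERK was followed across 3 culture groups of H1, a human embryonic stem cell line. They were chosen by symbol: the ETS factors ETV1, ETV4 and ETV5, the immediate early genes EGR1, FOS, FOSL1 and IER3, and the later targets PHLDA1, CCND1 and EPHA2. All 10 were among the 40332 gene symbols of the deposited table, and all 10 passed the filter on low counts that left 15179 genes for testing. The rule that picks them uses gene symbols and no measured value, although the set was proposed with earlier results of these data known.

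The 9 RNA-seq libraries were of H1 cells, an established line that the labels call wild-type, with 3 libraries per group. In the group called N2B27 + EPZ-6438 below, cells that had been kept in PXGL were in N2B27 basal medium with 5 µM EPZ-6438 for 3 days. EPZ-6438 (tazemetostat) is an inhibitor of EZH2, the catalytic subunit of Polycomb repressive complex PRC2. In the N2B27 group, cells from PXGL were in N2B27 without the inhibitor. How long is not stated for this group. Wherever EPZ-6438 is compared with N2B27 below, the inhibitor therefore cannot be told apart from a possible difference in time. In the PXGL group, cells were in PXGL, a medium that holds human cells in the naive pluripotent state with LIF and small molecules that block MEK, tankyrase and protein kinase C. N2B27 with or without EPZ-6438 therefore differed from PXGL in all of these components and not in the MEK inhibitor alone. All libraries come from a single line, and the sources do not say whether replicates were separate cultures.

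In the ERK pathway, growth factor receptors act through RAS and RAF on MEK, and MEK activates ERK. ERK phosphorylates transcription factors such as the ETS factor ELK1, which acts with SRF to start the immediate early genes within minutes and without new protein synthesis. Transcription of ETV1, ETV4 and ETV5, which make up the PEA3 subfamily of ETS factors, follows FGF and ERK signalling more slowly and is widely used as a readout of it. In human naive pluripotent cells the pathway is held down by a MEK inhibitor, and cells that leave the naive state regain it.

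Total counts were 14719595 to 16479593 per library with EPZ-6438, 14482124 to 15295189 in N2B27 and 17499691 to 18358519 in PXGL. Levels are given as CPM (counts scaled to a common library size) after TMM scaling, a correction for library composition, and 3 counts correspond to 0.164 to 0.211 CPM. PXGL replicate 1 stood apart: its counts differed from those of PXGL replicates 2 and 3 with a chi-square per degree of freedom of 19.6 and 26.3, against 2.57 to 3.66 for the other pairs within groups. The share of counts in ribosomal protein genes was 7.22% in that library and 5.92% and 5.51% in the other PXGL libraries. EZH2 had 82.5 ± 3.61 CPM with EPZ-6438 and 72.0 ± 2.86 CPM in N2B27 (SD, n = 3 each; adjusted p = 0.0415, with the call kept in 5 of 15 alternatives). The inhibitor acts on the enzyme, so this transcript does not check the labels.

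The labelled cell state was compared with marker lists summed per library. Naive markers summed to 2680 to 2740 CPM with EPZ-6438, 2570 to 2590 CPM in N2B27 and 3150 to 3740 CPM in PXGL. Their members diverged: against PXGL, 2 of 8 rose (KLF17 and SUSD2) and 6 fell with EPZ-6438, while in N2B27 4 fell and 4 missed the threshold. KLF4 had 54.1 ± 1.30 CPM with EPZ-6438, 38.3 ± 3.47 CPM in N2B27 and 146 ± 4.74 CPM in PXGL. Markers of the primed and formative states summed to 283 to 294 CPM with EPZ-6438, 590 to 605 CPM in N2B27 and 50.2 to 58.2 CPM in PXGL. In N2B27 relative to PXGL, 7 of 8 rose and OTX2 fell. The addition of EPZ-6438 to N2B27 went with 5 of 8 falling (SFRP2, CD24, THY1, SALL2 and PTPRZ1) and 2 rising. The genes that rose were ZIC2, with 13.0 ± 1.39 CPM with EPZ-6438 and 5.57 ± 1.08 CPM in N2B27, and OTX2, with 13.1 ± 0.666 CPM with EPZ-6438 and 8.82 ± 0.676 CPM in N2B27. All 8 genes of each list had counts in every group. In bulk RNA, fewer cells of a type and less RNA per cell cannot be told apart.

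The sequences around the transcription starts of 5 of the 10 genes (ETV1, EGR1, FOS, PHLDA1 and EPHA2) were at hand from RefSeq on GRCh38.p14, as windows of 250 bases before to 50 bases after the start. They show which of the classical response elements lie next to these starts. For ETV1, which has 6 annotated starts, the window of the most upstream start is given. Capitals mark matches to the motifs named after the sequences.

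ETV1, chr7:13991376-13991675, minus strand: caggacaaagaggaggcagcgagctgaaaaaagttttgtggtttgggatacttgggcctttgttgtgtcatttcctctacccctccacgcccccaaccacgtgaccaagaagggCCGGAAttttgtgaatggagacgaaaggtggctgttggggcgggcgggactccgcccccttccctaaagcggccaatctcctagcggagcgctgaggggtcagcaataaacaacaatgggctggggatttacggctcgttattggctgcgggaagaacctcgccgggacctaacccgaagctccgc

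EGR1, chr5:138465229-138465528, plus strand: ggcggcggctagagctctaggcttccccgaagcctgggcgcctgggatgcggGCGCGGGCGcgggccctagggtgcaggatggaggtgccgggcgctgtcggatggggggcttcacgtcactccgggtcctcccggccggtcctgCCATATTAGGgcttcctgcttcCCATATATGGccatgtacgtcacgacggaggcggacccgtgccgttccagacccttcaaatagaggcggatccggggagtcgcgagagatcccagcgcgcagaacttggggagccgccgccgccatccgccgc

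FOS, chr14:75278578-75278877, plus strand: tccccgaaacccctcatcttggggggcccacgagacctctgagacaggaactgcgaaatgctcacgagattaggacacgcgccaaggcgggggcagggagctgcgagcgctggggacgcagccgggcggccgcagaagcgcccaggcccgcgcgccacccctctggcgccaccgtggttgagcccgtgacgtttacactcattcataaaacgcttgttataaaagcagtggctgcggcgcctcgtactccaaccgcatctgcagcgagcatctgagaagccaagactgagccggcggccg

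PHLDA1, chr12:76031727-76032026, minus strand: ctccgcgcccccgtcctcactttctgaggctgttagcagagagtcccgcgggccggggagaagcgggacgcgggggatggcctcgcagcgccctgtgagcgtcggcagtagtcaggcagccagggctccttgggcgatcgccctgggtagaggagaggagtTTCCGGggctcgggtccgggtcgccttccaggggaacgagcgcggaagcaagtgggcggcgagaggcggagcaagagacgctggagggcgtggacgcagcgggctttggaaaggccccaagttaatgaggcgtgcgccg

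EPHA2, chr1:16156020-16156319, minus strand: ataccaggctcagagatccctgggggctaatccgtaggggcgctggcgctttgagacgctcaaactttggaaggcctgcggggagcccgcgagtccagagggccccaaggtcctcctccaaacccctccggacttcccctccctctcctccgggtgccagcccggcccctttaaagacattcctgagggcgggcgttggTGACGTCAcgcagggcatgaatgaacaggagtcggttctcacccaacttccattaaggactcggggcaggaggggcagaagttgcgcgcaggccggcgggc

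Both strands were searched for 5 motifs: the ETS site CCGGAA, the AP-1 site TGANTCA, the cAMP response element TGACGTCA, the CArG box bound by SRF, and the EGR site GCGNGGGCG. The EGR1 window held 2 CArG boxes, starting 105 and 83 bases before the transcription start, and an EGR site 198 bases before it. The ETV1 window shown held an ETS site 136 bases before its start, and 2 of the other 5 ETV1 windows held another, which these overlapping windows share. PHLDA1 held an ETS site on the opposite strand 89 bases before the start, and EPHA2 held a cAMP response element 51 bases before it. No motif matched in the FOS window; the well known serum response element of FOS lies upstream of it. Matches did not overlap each other. Of 35116 windows of this length over all genes, 17.2% held the ETS site, 7.71% the AP-1 site, 1.85% the cAMP response element, 1.29% the CArG box and 9.43% the EGR site. A match describes these letters only. ETV4, ETV5, FOSL1, IER3 and CCND1 are named here without sequence.

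All 10 genes rose both in N2B27 and in N2B27 + EPZ-6438 relative to PXGL, and 5 of the 10 changed with EPZ-6438 relative to N2B27. With EPZ-6438 against N2B27, ETV1, ETV4 and ETV5 each fell by about the same amount (log2 fold changes of -0.65, -0.72 and -0.68), while IER3 and CCND1 rose (0.76 and 0.33). EGR1, FOS, FOSL1, PHLDA1 and EPHA2 did not pass the test. The background is high in these comparisons: at an adjusted p under 0.05, 24.7% of all tested genes were called with EPZ-6438 against N2B27 (14.2% higher and 10.6% lower). For N2B27 against PXGL the share was 56.0% (27.3% higher and 28.7% lower), and for EPZ-6438 against PXGL it was 56.1% (28.1% higher and 28.0% lower). The 3 comparisons share libraries, so their results are not independent of each other.

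**Figure D1:**
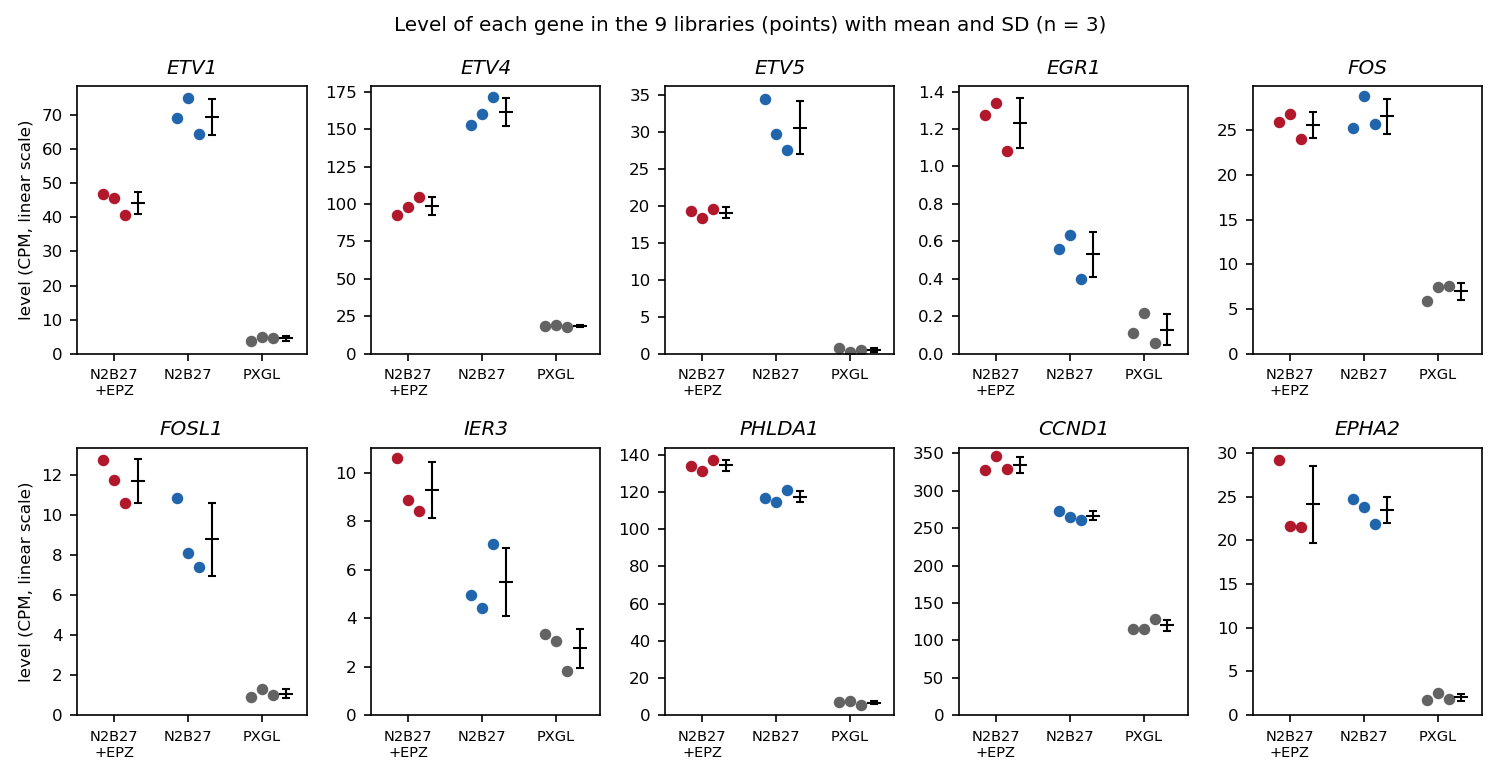
Level of each of the 10 genes (CPM, linear axis from 0, a separate scale per gene) in the 3 libraries of N2B27 + EPZ-6438, N2B27 and PXGL, as points, with the mean and SD (n = 3) beside them. Every library of both N2B27 groups lay above every PXGL library for all 10 genes, and ETV1, ETV4 and ETV5 lay lower with EPZ-6438 than in N2B27.

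The median log2 fold change of the 10 genes was 0.116 with EPZ-6438 against N2B27, 3.09 for N2B27 against PXGL and 3.26 for EPZ-6438 against PXGL, beside medians of 0.00727, -0.0276 and -0.00147 over all tested genes. With EPZ-6438 against N2B27, the 3 libraries per group did not overlap for 7 of the 10 genes, beside 46.4% of all tested genes. They did not overlap for 10 of 10 genes for N2B27 against PXGL and for EPZ-6438 against PXGL, beside 60.8% and 60.7% of all tested genes. Without PXGL replicate 1, all 10 genes still passed against PXGL in both N2B27 groups. In the fit without that library, 7 of the 10 genes passed with EPZ-6438 against N2B27 (4 higher and 3 lower) in place of 5, and 5770 genes of the whole table in place of 3752; the cause was not tested.

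The 3 PEA3 factors moved together. ETV4 (chromosome 17, 43527844 to 43579620, minus strand, hg38) is a factor that takes part in branching morphogenesis and in FGF responses. It had 92.5, 98.0 and 104 CPM with EPZ-6438, 153, 160 and 171 CPM in N2B27, and 18.1, 19.3 and 17.7 CPM in PXGL. The 3 groups were fully separated, with EPZ-6438 between N2B27 and PXGL. The fall with EPZ-6438 against N2B27 was 1.64-fold (log2 fold change -0.72, SE 0.07, 95% interval -0.86 to -0.57, adjusted p = 1.19e-06). ETV4 was 8.79-fold higher in N2B27 than in PXGL (adjusted p = 7.86e-15) and 5.35-fold higher with EPZ-6438 than in PXGL (adjusted p = 2.59e-13).

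ETV1 (chromosome 7, 13891228 to 13991425, minus strand) is known for roles in neurons and muscle spindles and as a fusion partner in tumours. Its level was 46.8, 45.7 and 40.7 CPM with EPZ-6438, 69.3, 75.1 and 64.5 CPM in N2B27, and 3.62, 4.99 and 4.66 CPM in PXGL. Again no library of a group reached the range of another group. ETV1 fell 1.57-fold with EPZ-6438 against N2B27 (log2 fold change -0.65, SE 0.09, 95% interval -0.85 to -0.45, adjusted p = 8.36e-05). It was 15.7-fold higher in N2B27 than in PXGL (adjusted p = 9.44e-14) and 10.02-fold higher with EPZ-6438 than in PXGL (adjusted p = 8.88e-13).

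ETV5 (chromosome 3, 186046308 to 186110318, minus strand) is a factor needed in mice for the upkeep of spermatogonial stem cells. It had 19.3, 18.3 and 19.6 CPM with EPZ-6438, 34.5, 29.7 and 27.54 CPM in N2B27, and 0.768, 0.219 and 0.444 CPM in PXGL, the last from 14, 4 and 8 counts. ETV5 was nearly silent in PXGL. The groups did not overlap, and the SD was 0.678 with EPZ-6438 and 3.55 in N2B27. The fall with EPZ-6438 was 1.60-fold (log2 fold change -0.68, SE 0.13, 95% interval -0.96 to -0.40, adjusted p = 0.00119). ETV5 had the largest increase of the 10 genes over PXGL. N2B27 exceeded PXGL with a ratio of 64.0 of summed scaled counts (95% counting interval 43.5 to 98.3; adjusted p = 9.03e-13), and EPZ-6438 was 39.3-fold above PXGL (adjusted p = 6.23e-12).

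Per kilobase of merged exons, the PEA3 genes summed to 35.2 ± 1.37 CPM per kb with EPZ-6438, 57.3 ± 1.70 CPM per kb in N2B27 and 5.63 ± 0.234 CPM per kb in PXGL. ETV4 made up 77.5 ± 1.70% of this sum with EPZ-6438, 78.1 ± 2.19% in N2B27 and 90.4 ± 0.558% in PXGL, so its share differed by less than the spread between EPZ-6438 and N2B27. ETV5 made up 9.36 ± 0.435%, 9.22 ± 1.35% and 1.48 ± 0.88% in the same 3 groups. The excess over PXGL with EPZ-6438 was 61.3% of the excess in N2B27 for ETV1, 55.9% for ETV4 and 61.8% for ETV5. The summed primed and formative markers were also lower with EPZ-6438 than in N2B27 (283 to 294 against 590 to 605 CPM), with 5 of 8 falling and ZIC2 and OTX2 rising, and their part in the fall of the PEA3 genes was not tested. The 3 calls held under every alternative except a test that required more than a 1.5-fold change (adjusted p = 0.161 for ETV4, 0.798 for ETV5 and 0.825 for ETV1). In the annotation ETV4 shares 68 exon bases with DHX8 on the opposite strand. DHX8 summed to 3260 counts with EPZ-6438, 3310 in N2B27 and 3593 in PXGL. ETV5 shares 164 exon bases with DGKG, which had at most 2 counts in any group.

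Among the immediate early genes, EGR1 was expressed close to the detection limit. EGR1 (chromosome 5, 138465490 to 138469315, plus strand) encodes a zinc finger factor induced within minutes of ERK activation. Its counts were 19, 22 and 16 with EPZ-6438, 8, 9 and 6 in N2B27, and 2, 4 and 1 in PXGL. These correspond to 1.28, 1.34 and 1.08 CPM with EPZ-6438, 0.557, 0.633 and 0.400 CPM in N2B27, and 0.110, 0.219 and 0.0555 CPM in PXGL. The 3 groups did not overlap, with EPZ-6438 highest. The difference between EPZ-6438 and N2B27 did not pass the test (log2 fold change 1.21, SE 0.47, 95% interval 0.22 to 2.20, adjusted p = 0.0713), and it passed in 1 of 15 alternatives (adjusted p = 0.047 to 0.472). EGR1 was 3.94-fold higher in N2B27 than in PXGL (adjusted p = 0.0136), with a ratio of summed counts of 4.11 and a counting interval of 1.71 to 11.3. That call was lost without PXGL replicate 3 (adjusted p = 0.0635) and when more than a 1.5-fold change was required (0.0588). EGR1 was 9.12-fold higher with EPZ-6438 than in PXGL (adjusted p = 0.000145).

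FOS (chromosome 14, 75278774 to 75282230, plus strand) encodes the partner of JUN in the AP-1 factor. It had 26.0, 26.9 and 24.1 CPM with EPZ-6438, 25.3, 28.8 and 25.7 CPM in N2B27, and 5.87, 7.45 and 7.61 CPM in PXGL. The first 2 groups overlapped and both lay above PXGL. The log2 fold change with EPZ-6438 against N2B27 was -0.05 (SE 0.11, 95% interval -0.28 to 0.18, adjusted p = 0.775), an interval that holds no change of 1.5-fold. FOS was 3.81-fold higher in N2B27 than in PXGL (adjusted p = 9.68e-10) and 3.67-fold higher with EPZ-6438 than in PXGL (adjusted p = 1.42e-09).

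FOSL1 (chromosome 11, 65892049 to 65900573, minus strand) encodes FRA1, an AP-1 subunit that ERK phosphorylation stabilises. Levels were 12.8, 11.7 and 10.6 CPM with EPZ-6438, 10.9, 8.09 and 7.40 CPM in N2B27, and 0.878, 1.31 and 0.9995 CPM in PXGL. N2B27 replicate 1 lay inside the range of the EPZ-6438 libraries, and the other N2B27 libraries lay below it. The difference did not pass (log2 fold change 0.41, SE 0.17, 95% interval 0.05 to 0.78, adjusted p = 0.0956), and without N2B27 replicate 1 it did (0.0361). Against PXGL, FOSL1 was 8.20-fold higher in N2B27 (adjusted p = 7.64e-09) and 10.9-fold higher with EPZ-6438 (adjusted p = 1.24e-09).

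IER3 (chromosome 6, 30743199 to 30744554, minus strand) encodes a short-lived protein that modulates cell death and ERK signalling. It had 10.6, 8.88 and 8.41 CPM with EPZ-6438, 4.94, 4.43 and 7.07 CPM in N2B27, and 3.35, 3.07 and 1.83 CPM in PXGL. The groups did not overlap, but N2B27 replicate 3 came close to the EPZ-6438 range. IER3 rose 1.69-fold with EPZ-6438 against N2B27 (log2 fold change 0.76, SE 0.22, 95% interval 0.29 to 1.22, adjusted p = 0.0184). The call was lost without N2B27 replicate 1 (adjusted p = 0.0796), N2B27 replicate 2 (0.091) or EPZ-6438 replicate 1 (0.0903). IER3 was 1.99-fold higher in N2B27 than in PXGL (adjusted p = 0.00225) and 3.37-fold higher with EPZ-6438 than in PXGL (adjusted p = 7.46e-06). Its deposited count was not whole in 5 of the 9 libraries, so reads were divided between this gene and others and its level is uncertain to that extent. IER3 also shares 359 exon bases with IER3-AS1 on the opposite strand, which summed to 3 counts with EPZ-6438, 1 in N2B27 and 16 in PXGL.

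The immediate early genes are also induced by cell handling, and heat and dissociation markers such as HSPA1A and HSPH1 were summed for that reason. They came to 5600 to 5960 CPM with EPZ-6438, 5780 to 5910 CPM in N2B27 and 3090 to 3850 CPM in PXGL, with counts for all 8 genes in each group. The sums of both N2B27 groups lay above PXGL, and overlapped between EPZ-6438 and N2B27. HSPA8 made up most of the sum, with 4379 ± 184 CPM with EPZ-6438, 4579 ± 64.4 CPM in N2B27 and 2241 ± 280 CPM in PXGL. The list as a whole was mixed. For N2B27 against PXGL 4 of 8 rose and 3 fell (median log2 fold change 0.0636), and with EPZ-6438 against PXGL 4 rose and 1 fell. Although the sums overlapped, 2 genes rose and 1 fell with EPZ-6438 against N2B27. HSPA1A and HSPA1B rose (log2 fold changes of 0.649 and 0.257, adjusted p = 1.87e-06 and 0.0226), and HSPE1 fell (-0.244, adjusted p = 0.0479). HSPA1A was lower in N2B27 than in PXGL (-0.266, adjusted p = 0.00269), where HSPA1B missed the threshold. The part of the heat and dissociation markers in the results was not tested.

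Within the FOS family, per kilobase of exons, FOS made up 50.4 ± 1.86% with EPZ-6438, 59.2 ± 5.08% in N2B27 and 71.4 ± 0.362% in PXGL. FOSL1 made up 39.4 ± 1.14%, 33.3 ± 5.39% and 18.7 ± 2.7% in the same 3 groups, and FOSL2 and FOSB the rest. The shares of FOS and FOSL1 in the N2B27 groups were separated from those in PXGL by more than the SDs.

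Among the later targets, PHLDA1 had one of the largest increases over PXGL. PHLDA1 (chromosome 12, 76025447 to 76033932, minus strand) encodes a pleckstrin homology-like protein that acts in cell survival and receptor signalling. It had 134, 132 and 137 CPM with EPZ-6438, 117, 115 and 121 CPM in N2B27, and 7.13, 7.34 and 5.66 CPM in PXGL. The EPZ-6438 libraries were all above the N2B27 libraries, by a small margin. The difference was 1.14-fold and did not pass (log2 fold change 0.19, SE 0.07, 95% interval 0.04 to 0.34, adjusted p = 0.060), and it passed in 4 of 15 alternatives, among them DESeq2 (0.0492). PHLDA1 was 17.5-fold higher in N2B27 than in PXGL (adjusted p = 1.27e-15). With EPZ-6438 it was higher than in PXGL by 4.32 on the log2 scale (adjusted p = 1.09e-15). In the annotation it shares 553 and 779 exon bases with the antisense genes AC011611.3 and AC011611.4, which are not among the counted symbols.

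CCND1 (chromosome 11, 69641087 to 69654474, plus strand) encodes cyclin D1, which activates CDK4 and CDK6 in the G1 phase of the cell cycle. It had 328, 346 and 330 CPM with EPZ-6438, 274, 266 and 262 CPM in N2B27, and 116, 115 and 129 CPM in PXGL. The 3 groups were fully separated, in the order EPZ-6438, N2B27 and PXGL from high to low. CCND1 rose 1.25-fold with EPZ-6438 against N2B27 (log2 fold change 0.33, SE 0.06, 95% interval 0.20 to 0.46, adjusted p = 0.00089), and the call was lost only when more than a 1.5-fold change was required. It was 2.23-fold higher in N2B27 than in PXGL (adjusted p = 1.51e-10) and 2.79-fold higher with EPZ-6438 than in PXGL (adjusted p = 7.28e-12). CCND1 was already well expressed in PXGL, where the other 9 genes had at most 18.4 CPM on average. It shares 497 exon bases with LTO1 on the opposite strand, which had 712 to 793 counts summed per group.

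The D cyclins did not move together. CCND2 had 204 ± 8.26 CPM with EPZ-6438, 92.2 ± 2.28 CPM in N2B27 and 3.34 ± 0.465 CPM in PXGL (log2 fold change 1.15 with EPZ-6438 against N2B27, adjusted p = 3.89e-09). CCND3 had 39.8 ± 1.17 CPM with EPZ-6438, 51.4 ± 1.97 CPM in N2B27 and 67.0 ± 7.61 CPM in PXGL (log2 fold change -0.37 with EPZ-6438 against N2B27, adjusted p = 0.00513). Per kilobase, CCND2 made up 27.3 ± 0.444% of the 3 D cyclins with EPZ-6438, 16.7 ± 0.136% in N2B27 and 1.27 ± 0.172% in PXGL. CCND1 was the largest in both N2B27 groups, at 66.2 ± 0.498% with EPZ-6438 and 71.8 ± 0.473% in N2B27. In PXGL its share was 67.4% by merged exons but 49.5% by the longest transcript, where CCND3 had 49.6%.

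EPHA2 (chromosome 1, 16124337 to 16156087, minus strand) encodes a receptor tyrosine kinase for ephrin A ligands. It had 29.2, 21.7 and 21.6 CPM with EPZ-6438, 24.8, 23.8 and 21.9 CPM in N2B27, and 1.76, 2.46 and 1.89 CPM in PXGL. The N2B27 libraries lay within the range of the EPZ-6438 libraries, of which replicate 1 was the highest. The log2 fold change with EPZ-6438 against N2B27 was 0.04 (SE 0.13, 95% interval -0.24 to 0.32, adjusted p = 0.865), and -0.12 without EPZ-6438 replicate 1. EPHA2 was 11.5-fold higher in N2B27 (adjusted p = 3.47e-11) and 11.8-fold higher with EPZ-6438 (adjusted p = 3.15e-11) than in PXGL.

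**Figure D2:**
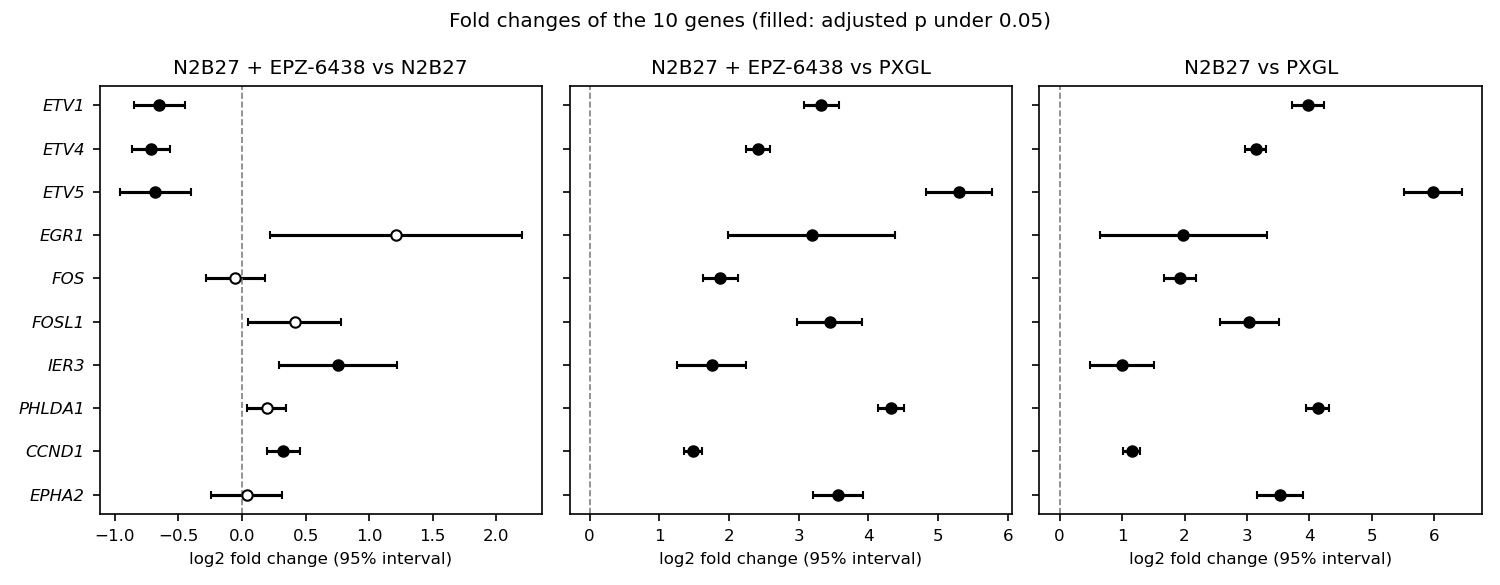
Log2 fold change of each gene with its 95% interval, for N2B27 + EPZ-6438 against N2B27, N2B27 + EPZ-6438 against PXGL, and N2B27 against PXGL; filled points passed an adjusted p under 0.05. Against N2B27 the 3 ETV genes lie near -0.7 and IER3 and CCND1 lie above 0, while against PXGL all 10 genes lie above 0 in both panels.

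Whether the 3 PEA3 genes differ from the other genes in their change with EPZ-6438 against N2B27 was not tested. Read side by side, the excess over PXGL with EPZ-6438 was 95.2% of that in N2B27 for FOS, 103% for EPHA2, 115% for PHLDA1, 138% for FOSL1, 146% for CCND1, 240% for IER3 and 275% for EGR1. EGR1 and IER3 have small denominators here, 0.402 and 2.73 CPM. When EPZ-6438 and N2B27 were fitted without the PXGL libraries, 8 of the 10 genes passed, with EGR1, FOSL1 and PHLDA1 joining the higher genes (adjusted p = 0.047, 0.0268 and 0.000611), while 5641 genes of the whole table were called in place of 3752. When more than a 1.5-fold change was required, 0 of 10 passed in edgeR at an adjusted p under 0.05 and 2 of 10 at an unadjusted one; without that requirement, 8 of 10 had an unadjusted p under 0.05 (5 higher and 3 lower) and DESeq2 called 6 of 10.

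Levels were compared between genes per kilobase of merged exons. With EPZ-6438 the order was CCND1 at 69.3 ± 2.12 CPM per kb, ETV4 at 27.3 ± 1.66, PHLDA1 at 16.7 ± 0.362, FOS at 7.92 ± 0.443 and IER3 at 6.85 ± 0.851. Below these were FOSL1 at 6.19 ± 0.576 CPM per kb, EPHA2 at 5.81 ± 1.06, ETV1 at 4.61 ± 0.337, ETV5 at 3.29 ± 0.117 and EGR1 at 0.393 ± 0.042. In N2B27, CCND1 had 55.3 ± 1.26 CPM per kb, ETV4 44.8 ± 2.56, PHLDA1 14.6 ± 0.379, FOS 8.21 ± 0.601 and ETV1 7.24 ± 0.549. EPHA2, ETV5, FOSL1, IER3 and EGR1 followed in N2B27 with 5.65 ± 0.357, 5.27 ± 0.611, 4.65 ± 0.971, 4.04 ± 1.03 and 0.169 ± 0.0378 CPM per kb. ETV1 and ETV5 thus ranked below IER3, FOSL1 and EPHA2 with EPZ-6438 and, in N2B27, above IER3 and FOSL1. Neighbours that differed by less than the sum of their SDs were each pair from FOS down to ETV1 with EPZ-6438, and FOS with ETV1 and each pair from EPHA2 down to IER3 in N2B27. In PXGL, CCND1 (24.8 ± 1.60 CPM per kb) was followed by ETV4 (5.09 ± 0.227), FOS (2.15 ± 0.297) and IER3 (2.03 ± 0.594), and the other 6 genes were under 0.9. The order of ETV4 and CCND1 depended on the length used: by the longest transcript, ETV4 had 66.5 and CCND1 62.0 CPM per kb in N2B27.

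**Figure D3:**
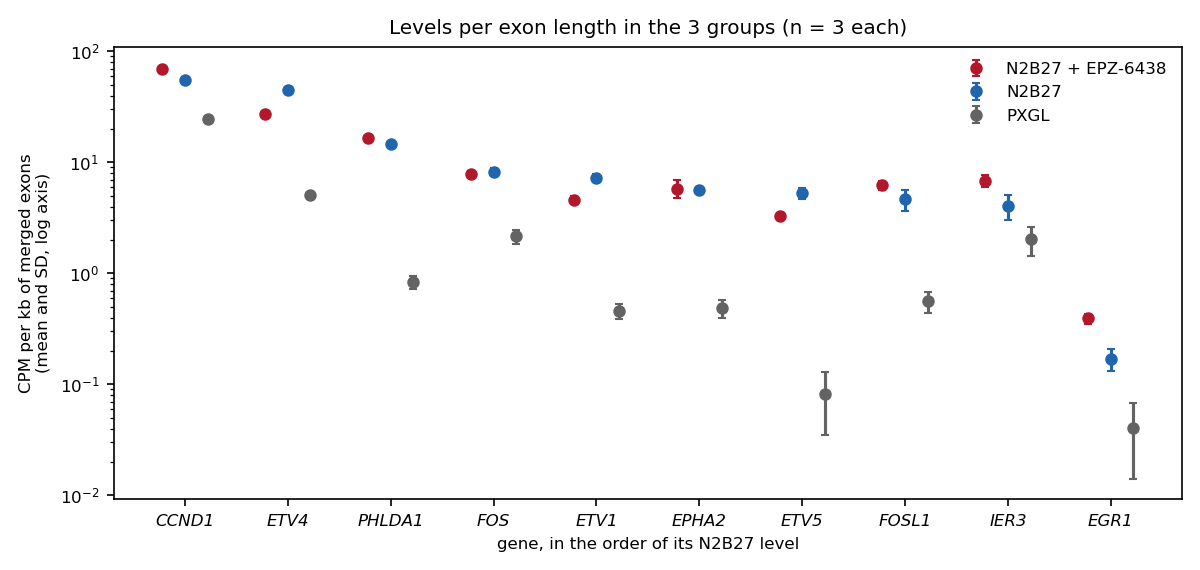
Mean level of each gene in CPM per kilobase of merged exons (log axis) with SD (n = 3) in N2B27 + EPZ-6438, N2B27 and PXGL, with genes in the order of their N2B27 level. CCND1 is highest in all 3 groups, and EGR1, at 0.393 CPM per kb with EPZ-6438, 0.169 in N2B27 and 0.0408 in PXGL, is lowest.

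Across the 9 libraries the genes were positively correlated, with PXGL low for all of them. Pearson's r of log2 CPM ran between 0.73 (ETV4 and IER3) and 0.99 (PHLDA1 and EPHA2). Among 11458 candidate genes with a mean of at least 5 CPM in some group, the profile most like that of ETV1 was NUAK1 (r = 0.9994), followed by PODXL and ITGB1. NUAK1 had 66.9 CPM with EPZ-6438, 91.1 CPM in N2B27 and 13.9 CPM in PXGL. For ETV4 it was FGF2 (r = 0.9985), with 196 CPM with EPZ-6438, 340 CPM in N2B27 and 22.5 CPM in PXGL, then ENTREP1 and IGDCC3. For ETV5 they were ARPP19, SFRP2 and UPP1, of which SFRP2 is one of the primed markers above. All the genes named for ETV1, ETV4 and ETV5 were also lower on average with EPZ-6438 than in N2B27. Picking them by r over these same libraries favours that order.

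The nearest profile to EGR1 was MOCOS (r = 0.991), with 8.63 CPM with EPZ-6438, 4 CPM in N2B27 and 1.39 CPM in PXGL, then PRAMEF7 and CER1. For IER3 they were PRAMEF26 (r = 0.9824), CDH6 and PRAMEF6. The PRAMEF genes are near-identical copies, so the split of reads among them is uncertain. For FOS they were FLNC, SPRED1 and SLC2A3, and for FOSL1 they were SOX3, GBX2 and CACNG4. PHLDA1 was most like ITGA1 (r = 0.9993), GPC4 and PEA15. CCND1 was most like GPRC5A (r = 0.9983), PLAU and CCND2, and EPHA2 was most like MID1IP1, PRNP and BTG1. These values describe 9 libraries in 3 groups, and any gene with the same order of groups has a high r.

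The pathway around the 10 genes was described with lists of genes by role. Of all tested genes, 24.7% were called with EPZ-6438 against N2B27, 56.0% for N2B27 against PXGL and 56.1% for EPZ-6438 against PXGL. The core cascade list runs from adaptors and RAS to ERK. With EPZ-6438 against N2B27, 1 of its 18 tested genes rose, 2 fell and 15 missed the threshold. That was 16.7% called, with a median log2 fold change of -0.0184. BRAF had 25.8 ± 1.03 CPM with EPZ-6438 and 17.4 ± 2.59 CPM in N2B27 (log2 fold change 0.57, adjusted p = 0.00615). MAP2K1, which encodes MEK1, had 45.2 ± 1.10 CPM with EPZ-6438 and 54.1 ± 2.66 CPM in N2B27 (log2 fold change -0.26, adjusted p = 0.0206). MAPK3, which encodes ERK1, had 31.0 ± 2.31 and 38.0 ± 4.47 CPM in the same groups (log2 fold change -0.29, adjusted p = 0.0401). The calls of MAP2K1 and MAPK3 were lost when single libraries were left out, and the number of cascade genes called was 1 without N2B27 replicate 1 or EPZ-6438 replicate 1 and 7 without PXGL replicate 1.

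For N2B27 against PXGL, 4 of the 18 cascade genes rose and 9 fell (median log2 fold change -0.174). The 3 with the smallest adjusted p all fell: the docking protein GAB1 (log2 fold change -0.95), the adaptor GRB2 (-0.52) and MAP2K2, which encodes MEK2 (-0.65). With EPZ-6438 against PXGL, 5 rose and 6 fell, and GAB1 and GRB2 were again lower (-1.14 and -0.51), as was MAPK3 (-0.80). The 10 target genes were thus higher in N2B27 than in PXGL while more cascade transcripts were called lower than higher.

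The feedback inhibitors of ERK listed here were Sprouty, SPRED and dual specificity phosphatase genes and IL17RD. Most had large increases over PXGL, but SPRY1 was only 1.42-fold higher in N2B27 than in PXGL. For N2B27 against PXGL, 9 of the 9 tested genes of this list rose (median log2 fold change 4.33); SPRED3 was below the filter, and DUSP6 also stands in the primed marker list. With EPZ-6438 against PXGL, 8 rose and 1 fell. DUSP4 had 71.2 ± 1.47 CPM with EPZ-6438 and 62.7 ± 1.07 CPM in N2B27 and no count in PXGL; taking 3 counts over the PXGL group as the floor, it was at least 1290-fold higher with EPZ-6438 and at least 1140-fold higher in N2B27. SPRY4 had 113 ± 3.02 CPM with EPZ-6438, 139 ± 4.07 CPM in N2B27 and 1 count in PXGL. SPRY2 had 47.3 ± 0.807 CPM with EPZ-6438, 62.6 ± 1.82 CPM in N2B27 and 5.91 ± 0.824 CPM in PXGL.

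With EPZ-6438 against N2B27, 3 of the 9 feedback genes fell and 6 missed the threshold (median log2 fold change -0.184). The 3 that fell were all Sprouty genes: SPRY1 (log2 fold change -0.99, adjusted p = 0.000487), SPRY2 (-0.40, 0.00184) and SPRY4 (-0.29, 0.00566). All 3 calls were lost when more than a 1.5-fold change was required (adjusted p = 0.0761 for SPRY1), which left 0 of the 9 genes called. SPRY1 had 6.88 ± 0.872 CPM with EPZ-6438, 13.7 ± 3.34 CPM in N2B27 and 9.61 ± 0.520 CPM in PXGL. It was the 1 feedback gene called lower with EPZ-6438 than in PXGL (log2 fold change -0.48, adjusted p = 0.0274). That call was lost without EPZ-6438 replicate 1, EPZ-6438 replicate 2 or PXGL replicate 2, and when more than a 1.5-fold change was required. Without PXGL replicate 1, 5 feedback genes passed (1 higher and 4 lower), and with DESeq2 4 fell.

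Other immediate early genes did not share 1 direction. With EPZ-6438 against N2B27, 8 of 20 tested genes rose, 3 fell and 9 missed the threshold (median log2 fold change 0.222). BTG2, an antiproliferative gene that p53 also induces, had 35.7 ± 0.949 CPM with EPZ-6438, 7.98 ± 0.729 CPM in N2B27 and 36.8 ± 2.68 CPM in PXGL. It was 4.48-fold higher with EPZ-6438 than in N2B27 (adjusted p = 4.36e-10), while EPZ-6438 and PXGL differed by less than the spread (log2 fold change -0.04, adjusted p = 0.716). ATF3, a stress-induced factor, had 44.7 ± 3.25 CPM with EPZ-6438, 23.3 ± 1.60 CPM in N2B27 and 10.5 ± 0.369 CPM in PXGL (adjusted p = 1.45e-06 for EPZ-6438 against N2B27). IER5 had 27.3 ± 2.39 CPM with EPZ-6438, 11.1 ± 2.33 CPM in N2B27 and 20.9 ± 1.62 CPM in PXGL (adjusted p = 2.62e-06).

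For N2B27 against PXGL, 12 of these 20 genes rose and 7 fell (median log2 fold change 0.394), and with EPZ-6438 against PXGL 15 rose and 3 fell (0.641). MYC, a growth regulator, had 42.1 ± 1.98 CPM with EPZ-6438, 50.2 ± 3.12 CPM in N2B27 and 2.73 ± 1.03 CPM in PXGL, and did not pass between EPZ-6438 and N2B27 (adjusted p = 0.151). CCN1, a matricellular protein gene, had 55.3 ± 1.56 CPM with EPZ-6438, 73.3 ± 3.01 CPM in N2B27 and 11.1 ± 0.884 CPM in PXGL. CCN1 fell with EPZ-6438 against N2B27 (log2 fold change -0.41, adjusted p = 0.000884). MYC and CCN1 were thus low in PXGL, ATF3 was highest with EPZ-6438, and BTG2 and IER5 were lowest in N2B27.

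**Figure D4:**
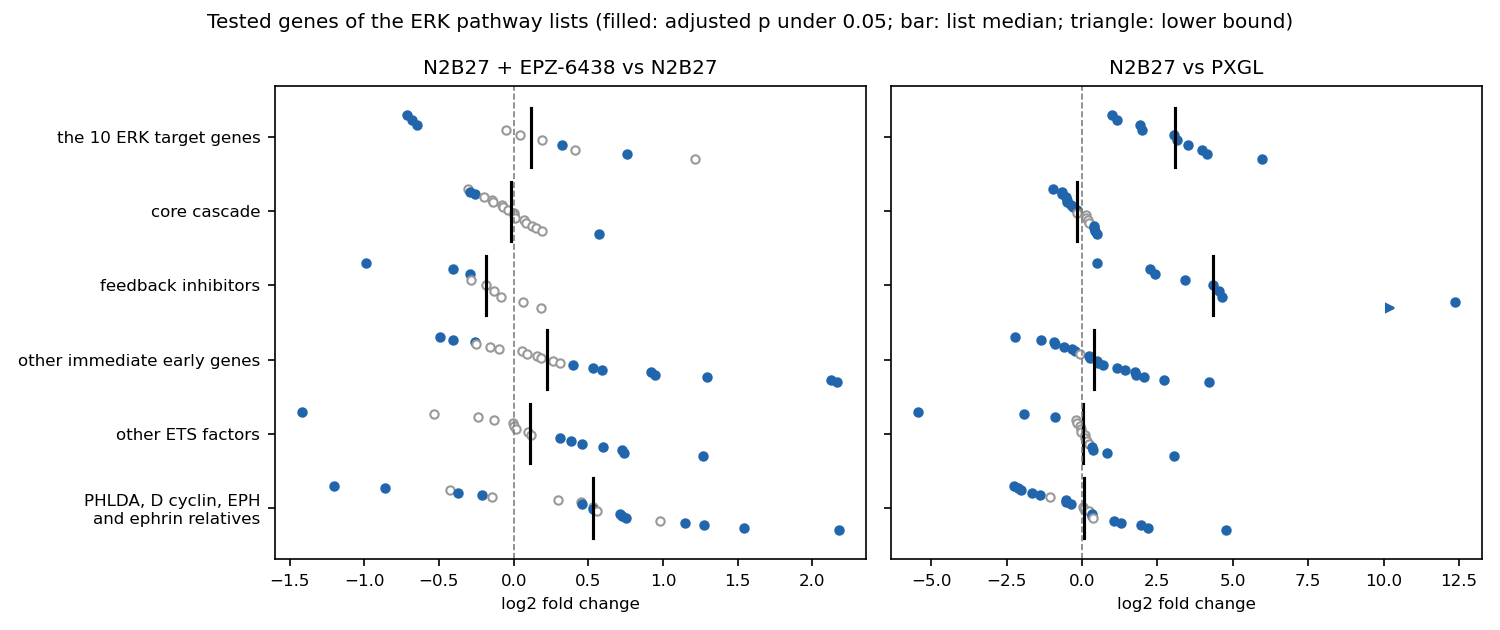
Log2 fold change of every tested gene of the 10 ERK target genes and of the 5 pathway lists, for N2B27 + EPZ-6438 against N2B27 (left) and N2B27 against PXGL (right); filled points passed an adjusted p under 0.05, bars are list medians, the triangle is the lower bound for DUSP4 and the point above 12 is the fitted value for SPRY4, which had 1 count in PXGL. On the right the target genes and the feedback inhibitors lie above 0 with medians of 3.09 and 4.33, while the other lists spread around 0.

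ETS factors outside the PEA3 subfamily were mixed against PXGL, while most of those called with EPZ-6438 against N2B27 rose. With EPZ-6438 against N2B27, 7 of 16 tested genes rose, 1 fell and 8 missed the threshold (median log2 fold change 0.107), and 8 of the 24 listed genes were below the filter. ELF3, an epithelial factor, had 69.1 ± 4.98 CPM with EPZ-6438, 41.5 ± 2.41 CPM in N2B27 and 159 ± 5.196 CPM in PXGL (log2 fold change 0.74 for EPZ-6438 against N2B27, adjusted p = 1.77e-06). ETS1 had 104 ± 1.61 CPM with EPZ-6438, 68.3 ± 0.803 CPM in N2B27 and 126 ± 14.8 CPM in PXGL (0.60, adjusted p = 2.86e-05). ELF4 had 41.5 ± 1.22 CPM with EPZ-6438, 25.0 ± 2.50 CPM in N2B27 and 19.8 ± 3.08 CPM in PXGL (0.73, adjusted p = 0.000134). ELF3 and ETS1 were thus lowest in N2B27, where ETV1, ETV4 and ETV5 were highest. The 1 gene that fell, named here after its values were seen, was SPIB, which had 2.16 ± 0.415 CPM with EPZ-6438, 5.78 ± 0.436 CPM in N2B27 and 0.696 ± 0.225 CPM in PXGL. SPIB had the same order of groups as the PEA3 genes: it fell 2.67-fold with EPZ-6438 against N2B27 (adjusted p = 0.000601) and was 8.21-fold higher in N2B27 than in PXGL (adjusted p = 1.85e-07). It was also the 1 gene of the list called with EPZ-6438 against N2B27 when more than a 1.5-fold change was required. For N2B27 against PXGL, 4 of the 16 rose and 3 fell, the largest fall being that of SPIC, with 0.161 ± 0.0432 CPM in N2B27 and 7.31 ± 2.16 CPM in PXGL (log2 fold change -5.44, adjusted p = 1.82e-07). With EPZ-6438 against PXGL, 6 rose and 3 fell.

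A list of PHLDA, D cyclin and EPH receptor genes, with the ephrin A ligands of EPHA2, was also mixed. With EPZ-6438 against N2B27, 9 of 20 tested genes rose, 4 fell and 7 missed the threshold (median log2 fold change 0.531). The ligand genes made up 3 of the rises (EFNA1, EFNA4 and EFNA5) and 1 of the falls (EFNA3). EPHA4 had 14.5 ± 0.855 CPM with EPZ-6438, 3.19 ± 1.12 CPM in N2B27 and 2.49 ± 1.004 CPM in PXGL (log2 fold change 2.18 for EPZ-6438 against N2B27, adjusted p = 6.63e-06). EPHA7 had 69.5 ± 2.48 CPM with EPZ-6438, 42.0 ± 3.33 CPM in N2B27 and 33.5 ± 2.08 CPM in PXGL (0.73, adjusted p = 5.81e-06). EPHA2 itself did not pass in that comparison. For N2B27 against PXGL, 7 rose and 8 fell, and with EPZ-6438 against PXGL 9 rose and 7 fell. EPHB2 and EPHA10 were lower in N2B27 than in PXGL (log2 fold changes of -2.25 and -2.12, adjusted p = 1.05e-08 and 4.11e-08), as was EPHA8. EPHA1, EPHA7, EPHB1, EPHB3 and EPHB4 were higher in N2B27 than in PXGL, as EPHA2 was. EPHB1 was also higher with EPZ-6438 than in PXGL (2.94, adjusted p = 1.50e-09).

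Markers of other cell types moved with the groups as well. Trophectoderm markers summed to 1020 to 1050 CPM with EPZ-6438, 854 to 864 CPM in N2B27 and 136 to 177 CPM in PXGL, with all 8 genes counted. KRT18 made up nearly all of this sum, with 1010 ± 13.6 CPM with EPZ-6438, 842 ± 5.08 CPM in N2B27 and 137 ± 23.8 CPM in PXGL. In N2B27 relative to PXGL, 2 of 7 tested genes of the list rose (KRT7 and KRT18) and 2 fell, the lineage factors GATA3 and CDX2. GATA3, CDX2 and KRT18 rose with EPZ-6438 against N2B27, and the other 4 tested genes missed the threshold. Hypoblast markers summed to 185 to 188 CPM with EPZ-6438, 111 to 119 CPM in N2B27 and 57.5 to 74.1 CPM in PXGL, with APOA1 at 0 in every library. COL4A1 made up most of it in both N2B27 groups, with 128 ± 2.90 CPM with EPZ-6438, 85.6 ± 4.29 CPM in N2B27 and 24.0 ± 4.44 CPM in PXGL. HNF4A was lower in both N2B27 groups than in PXGL, with 21.0 ± 0.818 CPM with EPZ-6438, 8.31 ± 0.319 CPM in N2B27 and 29.4 ± 4.27 CPM in PXGL, and PDGFRA did not pass in any comparison. GATA6, GATA4, HNF4A and COL4A1 rose with EPZ-6438 against N2B27. Fibroblast markers summed to 49.0 to 50.8 CPM with EPZ-6438 (DCN at 0), 59.3 to 61.0 CPM in N2B27 (COL3A1, LUM and DCN at 0) and 19.9 to 25.5 CPM in PXGL (POSTN and LUM at 0). The shared pluripotency genes POU5F1, NANOG, SOX2, LIN28A, LIN28B and TDGF1 summed to 4300 to 4370 CPM with EPZ-6438, 5340 to 5410 CPM in N2B27 and 3860 to 4050 CPM in PXGL. All of them fell with EPZ-6438 against N2B27. In N2B27 relative to PXGL, LIN28A, LIN28B and TDGF1 rose, SOX2 fell, and POU5F1 and NANOG missed the threshold. With EPZ-6438 against PXGL, LIN28A and TDGF1 rose, SOX2 and NANOG fell, and POU5F1 and LIN28B missed the threshold. The part of these differences in the levels of the 10 target genes was not tested.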

How the data were processed

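RNA-seq of H1 cells gave 9 libraries, for which the authors deposited expected counts (estimates, not always whole numbers) of 40332 gene symbols; between 7.13% and 8.09% of values per library were not whole. Per the labels' protocols, Trizol total RNA was depleted of ribosomal RNA, although the molecule label names polyA RNA. The tools STAR 2.7.6a, Trim Galore and DESeq2 and the hg38 genome are named per the submitters' processing notes; no source used here gives the counting program, annotation or strandedness, and overlapping genes on opposite strands cannot be told apart.

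Expected counts were rounded and columns were assigned to libraries by title. No 2 libraries of a group agreed within sampling noise, and all 9 were kept. They may be technical replicates, in which case p-values measure only the spread between libraries. Genes were filtered with filterByExpr (15179 kept of 22640 with a count). All 9 libraries were fitted in 1 model with a term per group (edgeR 4.0.16 quasi-likelihood test, robust, TMM scaling, R 4.3.3), with Benjamini-Hochberg adjustment over all tested genes and a threshold of 0.05. SE is the log2 fold change divided by the root of F. CPM per kb used merged exons of GENCODE 29 on hg38, which held 36545 of the symbols. Profiles were compared by Pearson's r of log2 CPM (limma 3.58.1 and edgeR, prior count 2). Counting intervals (95%) and the floor of 3 counts cover counting error only.

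On simulated counts with 200 changed genes, the fit recovered 79% of 1.5-fold and 91% of 2-fold changes for EPZ-6438 against N2B27 (14455 genes, 4 false calls). It recovered 71% and 90% for N2B27 against PXGL (14452 genes, 6 false calls), and 73% and 94% for EPZ-6438 against PXGL (14471 genes, 12 false calls). The changed genes were drawn from those above a low level in the reference group, which EGR1, FOSL1 and ETV5 did not reach in PXGL. EGR1, with a mean of 0.53 CPM, did not reach it in N2B27 either. The third group was simulated like the reference group. In the data, 24.7% to 56.1% of tested genes were called, so these rates need not hold for them.

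The genes, lists and tests were chosen with earlier results of these data known. Named were the 10 genes, EZH2, and up to 3 called genes with the smallest adjusted p per pathway list and comparison. So were 3 genes with the nearest profile to each of the 10. CCND3 was added to complete its family. SPIB and the ephrin A ligand genes called with EPZ-6438 against N2B27 were named outside this rule. So were the remaining EPH receptor genes called for N2B27 against PXGL. Alternatives were DESeq2 1.42.0 (test and size factors), library totals, other low-count filters, only the 2 groups compared, and the replicate number as a block. Others required a change of over 1.5-fold or left out each library of the 2 groups compared. For EPZ-6438 against N2B27, PXGL replicate 1 was also left out.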

Additional observations from a re-analysis of the deposited data

How the results depend on the processing

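Direction and side of the threshold were kept in 131 of 150 alternative fits of the 10 genes for EPZ-6438 against N2B27, 136 of 139 for N2B27 against PXGL and 140 of 140 for EPZ-6438 against PXGL. Sign changes were limited to genes near 0 with EPZ-6438 against N2B27: leaving out 1 library at a time gave EPHA2 values between -0.12 (without EPZ-6438 replicate 1) and 0.11, also below 0 without N2B27 replicate 3 (-0.01), and FOS values between -0.089 and 0.0075 (without N2B27 replicate 2). Requiring more than a 1.5-fold change left 724 genes called for EPZ-6438 against N2B27, 85.1% of them higher in place of 57.3%, with 0 of the 10 genes, 2956 genes for N2B27 against PXGL and 2928 genes for EPZ-6438 against PXGL. Fitting only EPZ-6438 and N2B27 called 5641 genes and 8 of the 10, and leaving out PXGL replicate 1, which was added once the data had been seen, called 5770 genes. Leaving out single libraries gave 2762 to 5770 genes and 4 to 7 of the 10 for EPZ-6438 against N2B27, 7663 to 9506 genes and 9 to 10 of the 10 for N2B27 against PXGL, and 7599 to 9452 genes and 10 of 10 for EPZ-6438 against PXGL. EGR1 was not tested for N2B27 against PXGL when only those 2 groups were fitted, since it fell below the filter; its log2 fold change against PXGL moved between 1.64 and 2.56 for N2B27 and between 2.84 and 3.77 with EPZ-6438. IER3 for N2B27 against PXGL missed the threshold when more than a 1.5-fold change was required (adjusted p = 0.0747). The cause of these differences was not tested.

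No pairing of the libraries by replicate number was detected: same-numbered deviations correlated between -0.026 and 0.037 over all genes. The labels do not say whether the numbers pair them. With replicate number as a block, 3696, 8507 and 8489 genes and 5, 10 and 10 of the 10 genes were called for EPZ-6438 against N2B27, N2B27 against PXGL and EPZ-6438 against PXGL, and EZH2 missed the threshold (adjusted p = 0.0574). Depth limits EGR1, with 7 counts summed in PXGL, and ETV5, with 26.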
